A study of Capra hircus with 6 samples.

Results

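Genes that build the kinetochore, run the spindle checkpoint and compact mitotic chromosomes were followed in secondary hair follicle dermal papilla cells (SHF-DPCs) of the Albas cashmere goat. The 44 gene symbols were given as a list that was drawn up with earlier results of these data known, although no measured value enters its rule, and a row of the deposited count table was taken when its identifier or its symbol was on that list. This gave 45 rows of the 15944 in the table, because CENPA is also the symbol of a second row, LOC108633924. All 45 rows passed the filter on low counts, which left 12588 genes for testing.

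RNA-seq was performed on 3 control libraries, cultured without all-trans retinoic acid (ATRA), and on 3 ATRA libraries. ATRA is the vitamin A metabolite that activates the retinoic acid receptors, and per the study's methods it was given at 100 µM for 24 h. All 6 libraries were labelled wild type, primary culture and batch 1, and the methods say that the cells were grown from the skin of adult goats and that 3 individual animals were used. The labels do not say which animal gave which library, so the p-values measure the spread between these libraries and no more.

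The kinetochore is the protein plate that forms on the centromere of each chromosome and binds the microtubules of the spindle. Its inner layer rests on nucleosomes that carry the histone variant CENP-A, and its outer layer holds the microtubule. The spindle checkpoint stops the anaphase-promoting complex until every kinetochore is attached, and condensin folds the chromosomes into compact rods. Many of these genes are transcribed mainly in late S phase, G2 and mitosis, so their transcripts are scarce in cells that do not divide. In the hair follicle, the dermal papilla is a mesenchymal signalling centre whose cells divide little in the skin but can be expanded in culture.

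The transcripts of these genes were lower with ATRA almost throughout. Of the 45 rows, 44 were lower and 0 higher (adjusted p under 0.05 by edgeR's quasi-likelihood test, two-sided, Benjamini-Hochberg over all genes tested), against 38.7% of all genes lower and 40.9% higher. The row that did not pass was BUB3. The same 44 rows had a log2 fold change (log2FC) under -1 with p under 0.05, the thresholds of the study's methods, against 17.3% of all genes. In these 44 rows every ATRA library also lay below every control library, as it did for 39.0% of all genes.

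The median log2FC of the 45 rows was -4.80, with a range from -10.31 to 0.01, beside a median of 0.04 over all genes tested. A log2FC under -5 was found for 22 rows, against 1.62% of all genes. The 50 genes with the lowest log2FC in the whole table held 4 of these rows, the lowest 100 held 10 and the lowest 500 held 30. In bulk RNA, fewer cells of a type and less RNA per cell cannot be told apart.

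**Figure D1:**
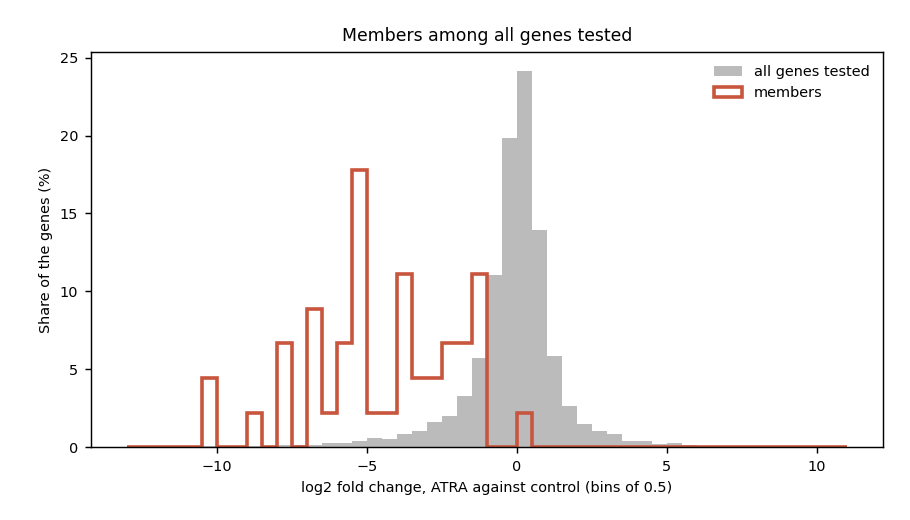
Share of genes, in percent, by log2FC of ATRA against control in bins of 0.5, for all 12588 genes tested (grey) and the 45 rows of the kinetochore, checkpoint and condensin list (red outline). All genes centre near 0.04, whereas the listed genes spread from -10.31 to 0.01 with a median of -4.80.

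The control libraries held 36887160 to 38012771 counts each, and the ATRA libraries 35532339 to 36870939. TMM factors were 0.842 to 0.851 in the control group and 1.16 to 1.20 in the ATRA group. With library size as the only scaling, the median over all genes was 0.52, and 2861 genes were lower and 7921 higher, in place of 4877 and 5151. No pair of libraries within a group was as alike as sampling noise allows (chi-square per degree of freedom 5.01 to 18.4), and the pairs that included ATRA replicate 2 had the highest values, 17.3 and 18.4.

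Cell type markers were examined because they changed in the same comparison. Of 13 markers of dermal papilla and mesenchyme, 8 could be tested and all 8 were lower, against 38.7% of all genes. The markers were not examined with library size only. The summed level of the 13 was 55400 to 58300 normalised CPM (counts divided by the scaled library size) in the control group and 2320 to 2410 with ATRA. Among the tested markers, ACTA2 had a mean of 6582 CPM in the control group and 8.37 with ATRA, and VCAN had 1641 and 32.4. NCAM1 had 80.3 and 19.1, and LEF1 had 16.1 and 11.1. Before scaling, the LEF1 counts of the groups overlapped, with 550, 468 and 518 in the control group and 430, 517 and 478 with ATRA. PROM1, ALPL and CORIN, also on this list, had 0 or 1 count in every library of both groups. SOX2 was not tested and went the other way, with 5, 0 and 2 counts in the control group and 10, 16 and 9 with ATRA. CRABP1 had at most 8 counts. The paper reports positive staining of these cells for α-smooth muscle actin, encoded by ACTA2, and for CD133, encoded by PROM1. The summed level of 5 keratinocyte markers, of which 0 could be tested, was 0.405 to 0.711 CPM in the control group and 0.0967 to 0.139 with ATRA. Among them EPCAM had 0, 1 and 0 counts in the control group and 1, 5 and 2 with ATRA. CDH1 had 0, 0 and 0 in the control group and 2, 1 and 2 with ATRA. The 4 endothelial markers summed to 0.322 to 0.556 CPM in the control group and to 5.24 to 8.03 with ATRA, almost all of it PECAM1, while CDH5 had 0 or 1 count and KDR at most 10. The 3 leukocyte markers in the table summed to 9.15 to 12.8 CPM and to 41.2 to 44.0 with ATRA, where CD68 and CD14 were higher, while CD3E had at most 5 counts. PMEL, the melanocyte marker present, was at 3.80 to 4.26 CPM in the control group and at 1.97 to 2.34 with ATRA. The part of these shifts in the results for the mitotic genes was not tested.

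Together the 45 rows held 0.185% to 0.189% of the counts of each control library and 0.0315% to 0.0327% of each ATRA library. Their summed level was 2190 to 2225 CPM in the control group and 270.7 to 275.8 with ATRA, so the groups were far apart and the libraries of each group close together. A large part of the ATRA sums was BUB3, which had 117.2 to 122.5 CPM with ATRA and 116.5 to 120.9 in the control group. Within the groups, the median deviation of the rows from their group means lay between -0.018 and 0.020 on the log2 scale in every library. The median coefficient of variation over the rows was 5.54% in the control group and 17.6% with ATRA, where many rows had few counts. For the 28 rows with at least 100 counts over the ATRA libraries it was 10.1%.

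The genes did not fall by a common factor. Expressed as the ATRA mean in percent of the control mean, 8 rows kept under 1% of their CPM, 16 kept 1% to 5%, 11 kept 5% to 20%, and 9 kept 20% to 50%. BUB3 alone kept over 50%. The 8 rows under 1% were CENPA, NUF2, TTK, CDC20, AURKB, MKI67, ASPM and FOXM1, and they came from every role of the list. The 9 rows at 20% to 50% were CENPH, CENPI, CENPM, CENPO, INCENP, SMC4, NCAPD2, PTTG1 and MYBL2. Across the 45 rows, which share their libraries, the log2 control level and the log2FC had a Pearson's r of -0.19 and a Spearman's rho of -0.18. The log2FC contains the control level, which also limits the fall of rows with few ATRA counts, so no conclusion is drawn from these values.

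**Figure D2:**
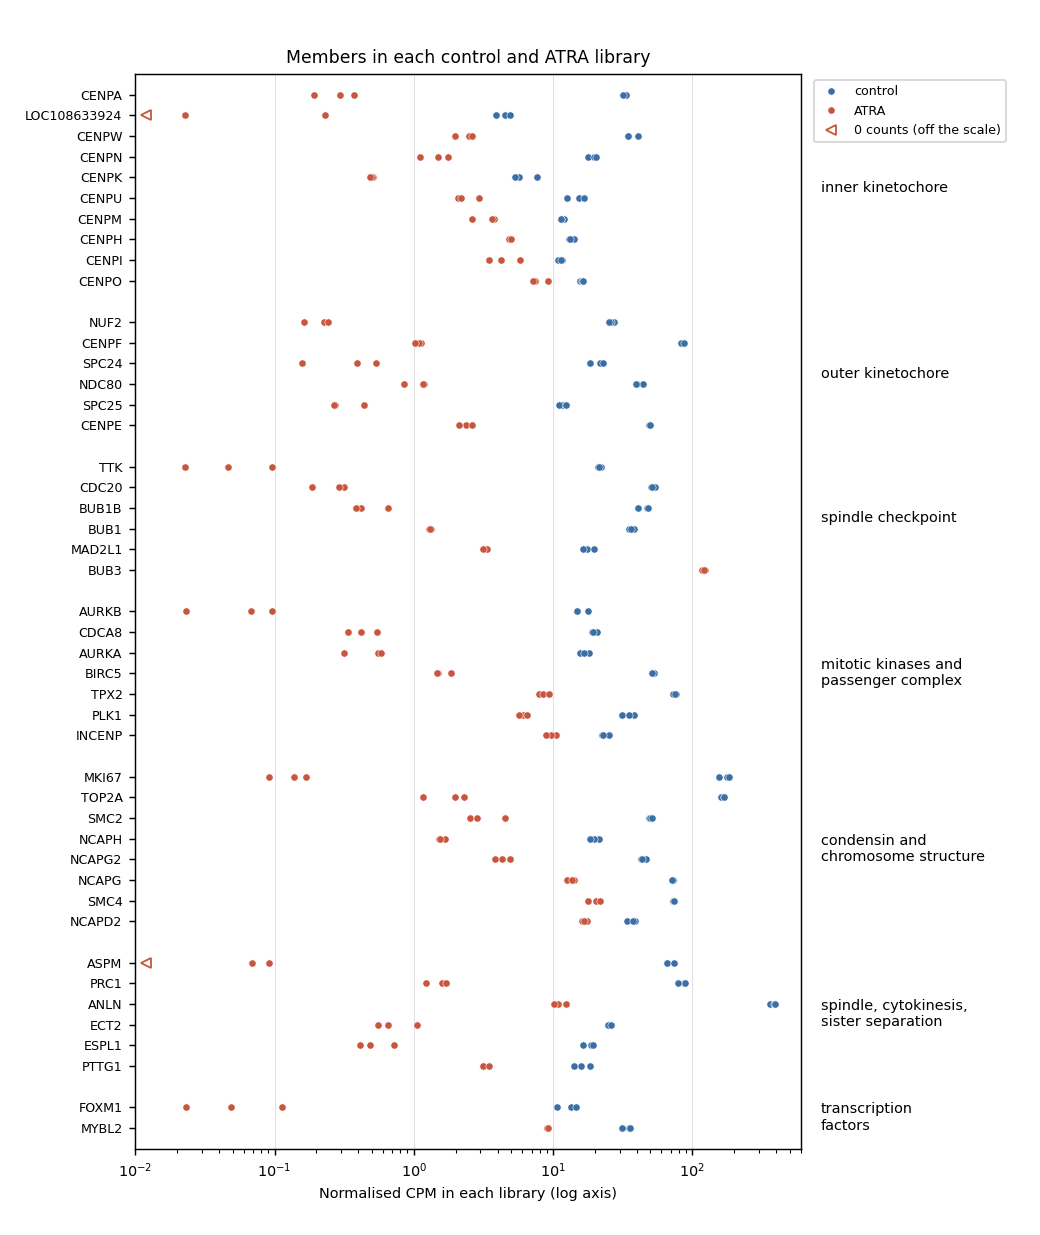
Normalised CPM (log axis) of each listed gene in the 3 control libraries (blue points) and the 3 ATRA libraries (red points), grouped by role, with open triangles for 0 counts. For 44 of 45 rows the 3 red points lie left of the 3 blue points, while for BUB3 all 6 points lie between 116.5 and 122.5 CPM.

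The inner kinetochore was represented by CENP-A and by subunits of the complex that binds its nucleosome. All 10 rows were lower, with a median log2FC of -3.12, and this role held the smallest change among the rows that fell. CENPA, the histone variant that marks the centromere, had 33.2, 33.3 and 31.8 CPM in the control libraries and 0.370, 0.295 and 0.193 with ATRA. Its log2FC was -6.82 (standard error 0.149, adjusted p = 5.91e-18), on 16, 13 and 8 counts in the ATRA libraries. LOC108633924, annotated as an H3-like centromeric protein A, had 4.51, 4.92 and 3.89 CPM in the control libraries and 0.231, 0.0227 and 0 with ATRA. These groups did not overlap, but the ATRA level rested on a single library, since the counts were 10, 1 and 0. Its log2FC was -5.65 (standard error 0.425, adjusted p = 1.00e-09). It was -8.20, -5.20 and -5.11 without ATRA replicates 1, 2 and 3. Both CENPA values are uncertain, because reads from near-identical copies may have been split between the rows.

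CENPO, a subunit of the inner plate, changed least of the genes that fell. It had 15.7, 16.1 and 16.4 CPM in the control libraries and 7.47, 7.23 and 9.13 with ATRA, a log2FC of -1.02 (standard error 0.106, adjusted p = 6.27e-08). It lies at the edge of the log2FC threshold and was short of it at -0.54 with library size only and -0.94 with upper quartile scaling. The same held at -0.94 as the difference of mean log2(CPM + 1) and at -0.93 with a pseudocount of 1 on the mean CPM. Without ATRA replicates 1 and 2 the values were -0.98 and -0.96, also short of the threshold. CENPI and CENPH, subunits of the CENP-H/I/K/M complex, had a log2FC of -1.33 and -1.46, and CENPM of that complex had -1.79. CENPK, the remaining subunit, fell further, with a log2FC of -3.63. CENPU, a partner of CENPO, had a log2FC of -2.62. CENPN, which binds the CENP-A nucleosome, had -3.72, and CENPW, a histone-fold protein of the inner plate, had -3.95.

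The outer kinetochore, which grips the microtubule, fell more evenly. All 6 genes were lower, with a median log2FC of -5.56 and a range from -6.95 to -4.39. NUF2, a subunit of the microtubule-binding NDC80 complex, had 27.5, 26.3 and 25.3 CPM in the control libraries and 0.162, 0.227 and 0.242 with ATRA (log2FC -6.95, standard error 0.157, adjusted p = 9.09e-18). The other subunits of that complex were also lower, with a log2FC of -5.26 for NDC80, -5.86 for SPC24 and -5.15 for SPC25.

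CENPF and CENPE are large proteins of the outer plate, of which CENPE is a kinesin motor. CENPF had 85.3, 83.4 and 87.3 CPM in the control libraries and 1.13, 1.09 and 1.02 with ATRA (log2FC -6.30, standard error 0.0968, adjusted p = 5.48e-20). CENPE, the least changed gene of this role, had 49.9, 48.7 and 49.6 CPM in the control libraries and 2.36, 2.11 and 2.61 with ATRA (log2FC -4.39, standard error 0.0968, adjusted p = 6.72e-18). For both genes the groups were far apart and the spread within each group was small.

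The spindle checkpoint held some of the largest falls and also the single gene that did not pass. Of its 6 genes, 5 were lower and BUB3 was not called. TTK, the kinase MPS1 that starts checkpoint signalling, had 21.1, 22.0 and 21.5 CPM in the control libraries and 0.0463, 0.0227 and 0.0967 with ATRA. Only 2, 1 and 4 counts remained in the ATRA libraries, and the log2FC was -8.54 (standard error 0.211, adjusted p = 3.19e-17). It was -8.45, -8.19 and -9.16 without ATRA replicates 1, 2 and 3. CDC20 is the activator of the anaphase-promoting complex that the checkpoint holds back. It had 54.2, 50.1 and 51.5 CPM in the control libraries and 0.185, 0.317 and 0.290 with ATRA (log2FC -7.60, standard error 0.137, adjusted p = 4.36e-19). BUB1B, the checkpoint protein BubR1, had a log2FC of -6.54, and BUB1, a checkpoint kinase, had -4.80. MAD2L1 encodes Mad2, which binds CDC20, and had a log2FC of -2.46.

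BUB3, the adaptor that carries BUB1 and BubR1 to the kinetochore, had 120.9, 116.5 and 119.3 CPM in the control libraries and 122.5, 117.2 and 120.4 with ATRA. The groups overlapped, and the log2FC was 0.01 (standard error 0.0546, adjusted p = 0.830). The sign of this value depended on the scaling. It was -0.007 with RLE scaling and with DESeq2, and with library size only BUB3 was higher, with a log2FC of 0.49 (adjusted p = 2.83e-07), beside the shift of 0.52 in the median of all genes under that scaling. A p that misses the threshold does not show that BUB3 was equal in both groups.

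**Figure D3:**
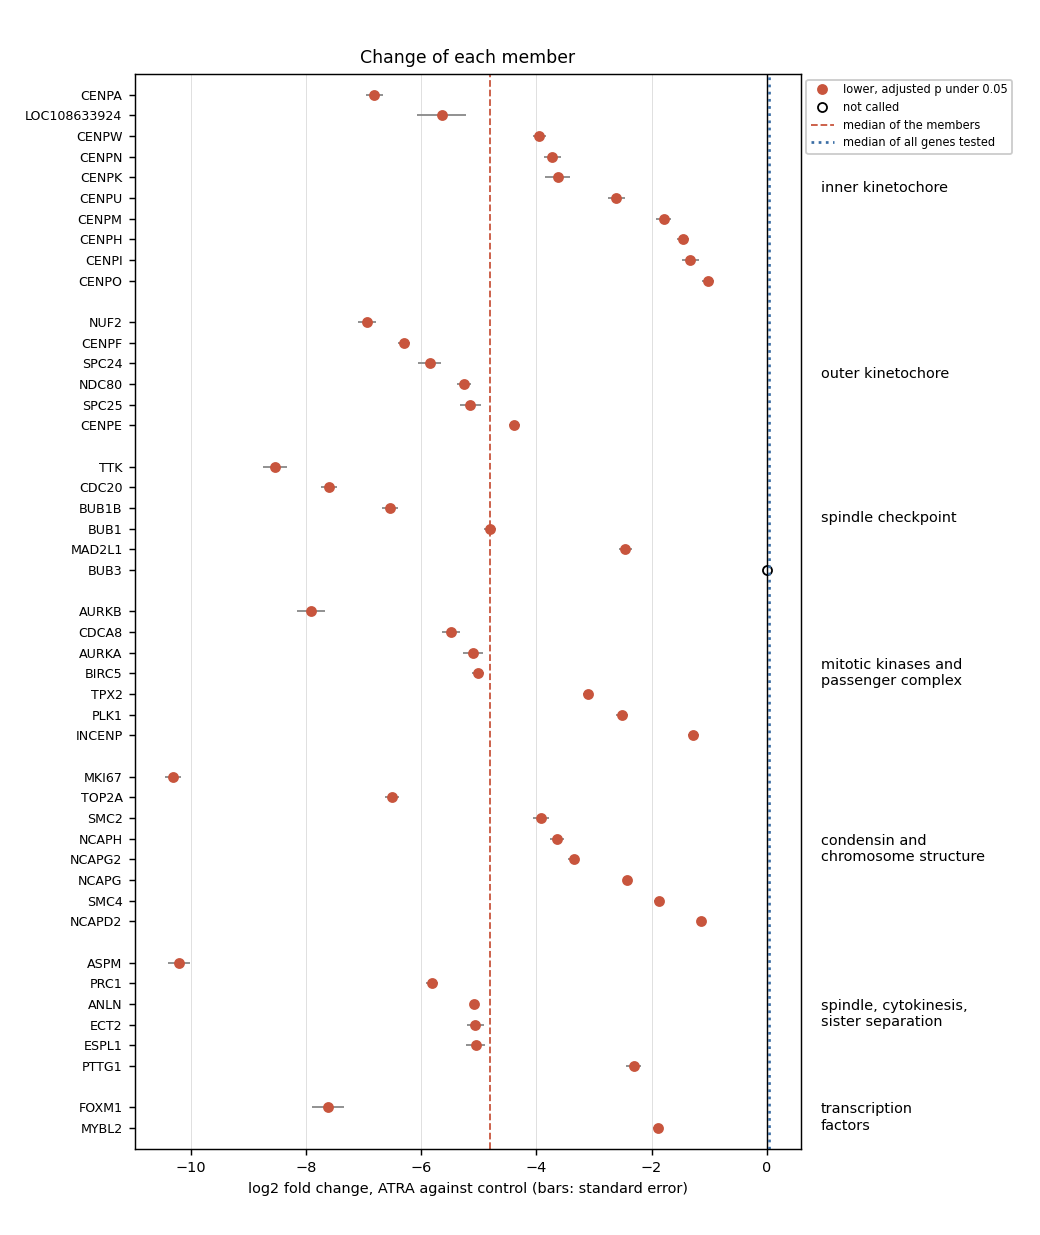
log2FC of ATRA against control for each listed gene by role, with bars for the standard error, the median of the listed genes (red dashed line, -4.80) and the median of all genes tested (blue dotted line, 0.04). BUB3 is the open point at 0.01 and CENPO, at -1.02, is the nearest of the genes that fell.

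The mitotic kinases and the chromosomal passenger complex were lower in all 7 genes, with a median log2FC of -5.01. AURKB, the kinase of the passenger complex that corrects faulty microtubule attachments, had 17.8, 14.9 and 14.9 CPM in the control libraries and 0.0231, 0.0680 and 0.0967 with ATRA. It had 1, 3 and 4 counts left and a log2FC of -7.92 (standard error 0.238, adjusted p = 6.66e-16). CDCA8, the borealin subunit, had 18.9, 20.6 and 19.3 CPM in the control libraries and 0.416, 0.544 and 0.338 with ATRA (log2FC -5.48, standard error 0.156, adjusted p = 2.86e-16). BIRC5, the survivin subunit, had a log2FC of -5.01.

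INCENP, the scaffold that holds AURKB in the same complex, fell much less. It had 25.2, 22.3 and 22.8 CPM in the control libraries and 10.4, 9.68 and 8.94 with ATRA (log2FC -1.27, standard error 0.0927, adjusted p = 4.01e-10). Of the kinases outside the complex, AURKA, which acts at spindle poles, had a log2FC of -5.11, and PLK1, which acts at centrosomes and kinetochores, had -2.51. TPX2, the activator of AURKA on the spindle, had a log2FC of -3.11.

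Condensin and other proteins of mitotic chromosome structure were lower in all 8 genes, with a median log2FC of -3.50. MKI67, which encodes the Ki-67 protein that coats mitotic chromosomes, had 176.9, 156.5 and 182.0 CPM in the control libraries and 0.139, 0.0907 and 0.169 with ATRA, on 6, 4 and 7 counts. Its log2FC of -10.31 (standard error 0.137, adjusted p = 1.16e-20) was the lowest of the list. TOP2A, the topoisomerase that untangles sister chromatids, had 159, 168 and 170 CPM in the control libraries and 1.97, 2.29 and 1.16 with ATRA (log2FC -6.51, standard error 0.1246, adjusted p = 3.42e-18).

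The condensin subunits had smaller changes than MKI67 and TOP2A, and the subunits differed in size of change. SMC2 and SMC4 are the ATPase core that both condensin complexes share, and they had a log2FC of -3.92 and -1.88. NCAPH, NCAPG and NCAPD2 are the further subunits of condensin I. NCAPH had a log2FC of -3.65 and NCAPG had -2.42. NCAPD2 had 38.9, 33.8 and 37.5 CPM in the control libraries and 17.4, 16.1 and 16.6 with ATRA (log2FC -1.14, standard error 0.0799, adjusted p = 2.48e-10). Every ATRA library lay below every control library for NCAPD2, although the change was the smallest of this role. NCAPG2, of condensin II, had a log2FC of -3.35.

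Genes of spindle organisation, cytokinesis and sister separation were lower in all 6 cases, with a median log2FC of -5.07. ASPM, a protein of the spindle poles, had 66.1, 65.9 and 73.6 CPM in the control libraries and 0.0694, 0.0907 and 0 with ATRA, on 3, 4 and 0 counts (log2FC -10.21, standard error 0.190, adjusted p = 6.51e-19). PRC1, which bundles microtubules in the midzone of the anaphase spindle, had 87.5, 89.0 and 79.2 CPM in the control libraries and 1.60, 1.70 and 1.23 with ATRA (log2FC -5.81, standard error 0.107, adjusted p = 5.72e-19). The cytokinesis genes ANLN, which encodes anillin of the contractile ring, and ECT2, an activator of RhoA, had a log2FC of -5.08 and -5.06.

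Separase and securin control the moment at which sisters part. ESPL1, the separase that cuts cohesin, had a log2FC of -5.05. PTTG1, the securin that inhibits it, had 18.4, 15.8 and 14.2 CPM in the control libraries and 3.12, 3.15 and 3.46 with ATRA (log2FC -2.31, standard error 0.124, adjusted p = 4.18e-12). PTTG1 was thus the least changed gene of this role, with the groups still apart.

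FOXM1 and MYBL2 encode transcription factors that bind the MuvB complex at promoters of genes of G2 and mitosis. FOXM1 had 13.5, 10.6 and 14.5 CPM in the control libraries and 0.0231, 0.113 and 0.0483 with ATRA, on 1, 5 and 2 counts. Its log2FC was -7.62 (standard error 0.275, adjusted p = 9.74e-15), and -8.38 without ATRA replicate 2, which held most of the few counts. MYBL2, known as B-Myb, had 34.9, 31.4 and 35.5 CPM in the control libraries and 9.02, 9.11 and 9.21 with ATRA (log2FC -1.90, standard error 0.0845, adjusted p = 2.47e-13). Both were lower in 3 of 3 ATRA libraries.

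The uneven fall was examined inside complexes by the ratio of the counts of 2 partner genes in the same library, which does not depend on the scaling between libraries. The 14 pairs were chosen after the values had been seen, so the ratios are given as a description with no test, and each is compared only between the groups, because gene length was not taken into account. As mean ± SD over the 3 libraries of a group, SMC2/SMC4 was 0.682 ± 0.0118 without ATRA and 0.163 ± 0.0401 with it. NCAPH/NCAPD2 was 0.541 ± 0.0468 and 0.0944 ± 0.0013. Both condensin ratios were lower in every ATRA library than in any control library.

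AURKB/INCENP, within the passenger complex, was 0.675 ± 0.0272 in the control group and 0.00669 ± 0.0043 with ATRA. BUB1/BUB3 was 0.307 ± 0.00792 and 0.0109 ± 0.000133, and BUB1B/BUB3 was 0.381 ± 0.0406 and 0.00404 ± 0.0012. CDC20/MAD2L1, the activator against its inhibitor, was 2.94 ± 0.342 and 0.0817 ± 0.0216. In each of these ratios the partner named first lost more of its reads. The same held for AURKA/TPX2, with 0.224 ± 0.0128 and 0.0562 ± 0.0169, and for ESPL1/PTTG1, with 1.14 ± 0.191 and 0.168 ± 0.0567. FOXM1/MYBL2 was 0.378 ± 0.0356 and 0.00675 ± 0.00511, and CENPK/CENPH was 0.462 ± 0.106 and 0.102 ± 0.00434.

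The ratios inside the NDC80 complex moved less, but they rest on few reads with ATRA. In the ATRA libraries NUF2 had 7, 10 and 10 counts, SPC24 had 17, 7 and 22, and SPC25 had 19, 12 and 11. NDC80/NUF2 was 1.56 ± 0.116 in the control group and 5.30 ± 1.90 with ATRA, whereas SPC24/SPC25 was 1.80 ± 0.295 and 1.16 ± 0.744 with overlapping libraries. BIRC5/CDCA8, of the passenger complex, was 2.66 ± 0.0634 and 3.94 ± 1.42, also with overlapping libraries. NCAPG/NCAPG2, a subunit of condensin I against one of condensin II, was 1.63 ± 0.0633 and 3.15 ± 0.525. The libraries of the groups overlapped only in SPC24/SPC25 and BIRC5/CDCA8 among the 14 pairs. CDCA8 also had few ATRA counts, 18, 24 and 14, so these overlaps do not show that the partners fell alike.

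**Figure D4:**
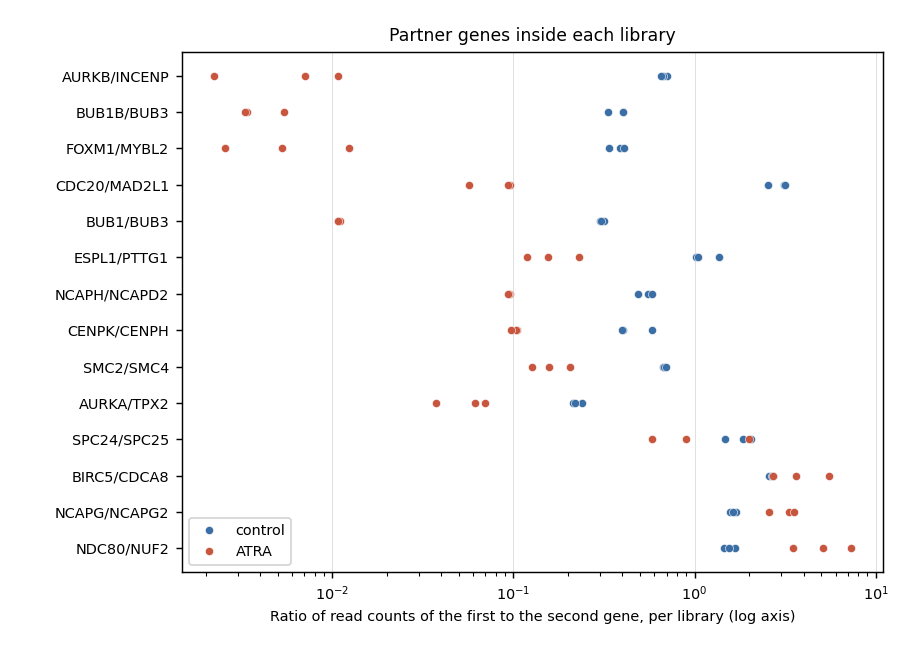
Ratio of the read counts of the first to the second gene of each pair (log axis) in each of 3 control libraries (blue) and 3 ATRA libraries (red). AURKB/INCENP moved from 0.675 to 0.00669 on average, while the points of SPC24/SPC25 and BIRC5/CDCA8 overlap between the groups.

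Further genes of the same processes, from lists that do not hold the 45 rows, were compared by their counts and medians. Among all 84 of them, 63 were lower, 7 higher and 14 not called, with a median log2FC of -0.81. The shares over all genes tested, 38.7% lower and 40.9% higher, stand as the background for this count and for each list that follows. Of 25 other genes of the kinetochore and centromere, 22 were lower and 0 higher, with a median of -2.32, and 3 were higher with library size only. CENPT, which links the inner plate to the NDC80 complex, had a log2FC of -6.54 (standard error 0.224, adjusted p = 4.42e-15), and CENPP, a partner of CENPO, had -6.44 (standard error 0.247, adjusted p = 2.44e-14). CENPC, which binds the CENP-A nucleosome directly, had the highest value, 0.15 (adjusted p = 0.0693). The other genes of this list that were not called were MIS12, of the layer between inner and outer plate, at 0.03, and ZW10, which brings dynein to the kinetochore, at 0.10. MIS12 and ZW10 are named because so few genes of this list were not called, a choice made after their values were seen.

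Of 7 further genes of the checkpoint and of centromere protection, 4 were lower and 0 higher (3 higher with library size only), with a median of -0.95. SGO1, which shields centromeric cohesin, had a log2FC of -3.90, and TRIP13, which recycles Mad2, had -3.69, while MAD2L1BP, which binds Mad2, was highest at 0.03 (adjusted p = 0.817). Both remaining subunits of condensin II were lower, NCAPD3 with -0.76 and NCAPH2 with -0.52, although only 1 of them was with library size only. All 13 other genes of the spindle and of cytokinesis were lower, with a median of -3.27, and 1 of them was higher with library size only. DLGAP5, a spindle assembly factor, had 36.7, 34.3 and 34.0 CPM in the control libraries and 2, 2 and 3 counts with ATRA, so it was at least 500.1-fold lower against a floor of 3 counts per library. CEP55, of the midbody, had a log2FC of -5.27, and NUMA1, of the spindle poles, had the smallest change, -0.23.

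Cohesin, which holds sister chromatids together, and the anaphase-promoting complex, which triggers their separation, are given beside the same background. Of 14 genes of cohesin and its regulators, 6 were lower and 4 higher, with a median of -0.18, so the share of lower genes was near the 38.7% of all genes. With library size only, 2 were lower and 8 higher. CDCA5, the sororin that locks cohesin, had a log2FC of -6.60, and ESCO2, an acetyltransferase of cohesin in S phase, had -2.81, while the cohesin loader subunit MAU2 rose by 0.92. Of 18 genes of the anaphase-promoting complex and its partners, 12 were lower and 2 higher, with a median of -0.28, and with library size only 6 were lower and 9 higher. UBE2C, its ubiquitin-conjugating enzyme, had a log2FC of -6.35, and FBXO5, its inhibitor Emi1, had -3.38, while the core subunit ANAPC2 rose by 0.98. Of 5 core genes of the MuvB complex, 4 were lower and 1 higher, with a median of -0.27, and with library size only 1 was lower and 3 higher. LIN9 had a log2FC of -1.76, LIN54 had -0.74 and LIN37 had 0.36.

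The genes of DNA replication, which act earlier in the cell cycle, are set beside these values as a description. Of 39 such genes, 33 were lower and 3 higher, with a median log2FC of -1.50 and a range from -7.35 to 0.64, against 38.7% and 40.9% of all genes. With library size only, a comparison added after seeing the data, 28 were lower and 6 higher. A log2FC under -5 was found for 3 of the 39, against 1.62% of all genes. It was found for 22 of the 45 rows of the kinetochore, checkpoint and condensin list. Of the 84 further genes of the same processes, 9 had a log2FC under -5. All these lists were compared in the same libraries.

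**Figure D5:**
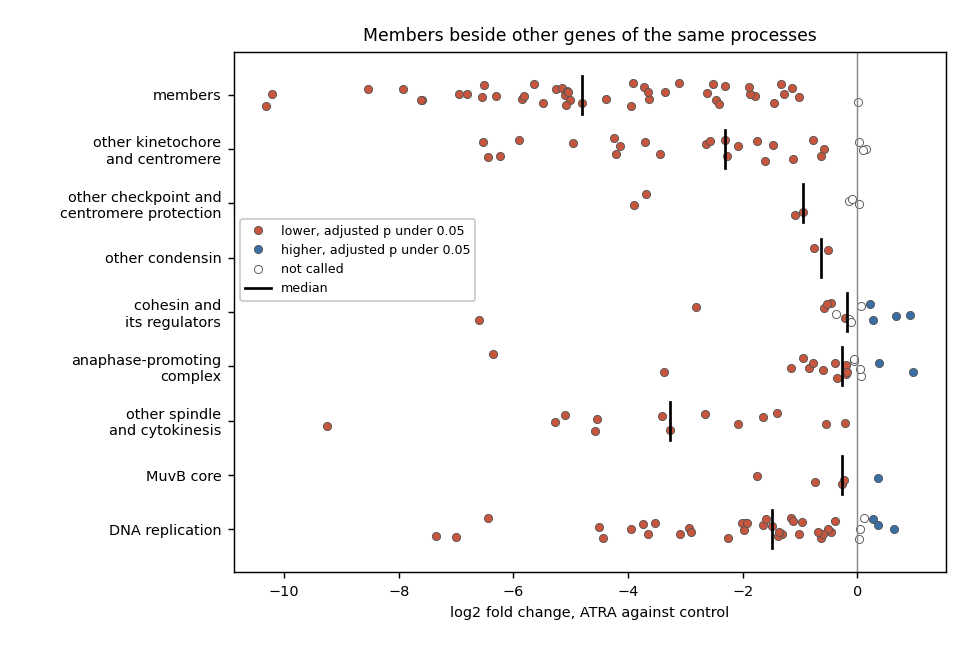
log2FC of ATRA against control for the 45 listed rows, for 7 lists of other genes of the same processes and for DNA replication, with 1 point per gene coloured by its call and a black line at each median. The medians run from -4.80 for the listed rows to -0.18 for cohesin and its regulators, and cohesin, the anaphase-promoting complex, the MuvB core and DNA replication hold genes that rose under TMM scaling, more of them with library size only.

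The annotation deposited beside the counts was read for what the rows share. The list was drawn up by gene function, so an excess of such terms was fixed in advance and is given only as a description. The Gene Ontology term cell division was attached to 21 of the 45 rows, against 2.14% of all genes tested, and condensed chromosome kinetochore to 15, against 0.604%. Chromosome segregation was attached to 9 rows, against 0.437%, and kinetochore to 8, against 0.445%. Centrosome was attached to 4 rows, against 2.72%. The KEGG pathway Cell cycle listed 9 rows, against 0.953% of the genes tested, and Oocyte meiosis listed 7, against 0.802%.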

How the data were processed

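The authors enriched poly(A) mRNA, used fastp and TrimGalore to clean the reads, and deposited 1 table of read counts per gene, as whole numbers that were not normalised, beside gene annotation. The submitters' processing notes name HISAT2, featureCounts and DESeq2 without versions. The genome build, annotation and strand setting were not given in the sources used here, so reads of near-identical, overlapping or antisense genes may be split or shared. The table holds no columns of the authors' own comparisons, and every column of counts was used.

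Genes were filtered with filterByExpr, scaled by TMM. The quasi-likelihood test of edgeR (robust, two-sided) was then fitted to all 6 libraries with no covariate, and p-values were adjusted by Benjamini-Hochberg over 12588 genes. Normalised CPM uses the library total over the tested genes times the TMM factor. The log2FC has edgeR's default prior count, and dividing its absolute value by the square root of F gave the standard error. For genes with at most 3 counts in each ATRA library, the fold is a lower bound computed with 3 counts per library. Errors and floors cover these cultures and counting only.

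The listed genes, the related lists and the cell type markers were chosen with earlier results of these data known, and the partner pairs after the values were seen. Values in every library are given for the 2 largest and the smallest changes of each role and for any gene not lower. Of each related list, the 2 most negative called genes and the most positive gene are named. MIS12 and ZW10 are named in addition. Alternatives were RLE, upper quartile and library size scaling, other filters, DESeq2, R's t.test function (named in the study's methods), a pseudocount of 1, a replicate block, and fits that dropped 1 library at a time. The scripts were tested on simulated data. The software was edgeR 4.0.16 and DESeq2 1.42.0 in R 4.3.3, with matplotlib 3.10.9 for the plots.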

Additional observations from a re-analysis of the deposited data

How the results depend on the processing

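The 44 listed rows that were lower stayed lower, with an adjusted p under 0.05, under every alternative that gave a test. The pseudocount of 1 gave values only, which were below 0 for the same 44 rows. A log2FC under -1 was kept by 39 to 44 rows, and the share of all genes under -1 was not computed for the alternatives. In the main fit a log2FC under -2 was found for 36 rows, against 1035 of the 12588 genes tested. With library size only, CENPO, CENPI and CENPH were short of -1, at -0.54, -0.85 and -0.98. So were INCENP and NCAPD2, at -0.80 and -0.66. The number of rows that were higher was 0 in each alternative except library size only, where it was 1 (BUB3, log2FC 0.49). The median log2FC of the rows was -4.73 with upper quartile scaling, -4.32 with library size only, -3.58 as the difference of mean log2(CPM + 1) used with R's t.test function, and -3.57 with a pseudocount of 1 on the mean CPM. A pseudocount compresses changes whose ATRA level is far below it by construction. With 1 library left out at a time, the median lay between -4.84 and -4.78.

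BUB3 changed sign, at -0.007 with RLE scaling, -0.007 with DESeq2, -0.008 without control replicate 2 and -0.007 without ATRA replicate 1, and its log2FC ranged from -0.008 to 0.022 with 1 library left out. None of these values passed the test, and the cause was not tested.

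The deviations of same-numbered libraries from their group means had r = 0.089, 0.030 and -0.076 for numbers 1, 2 and 3. For differently numbered libraries r ran from -0.135 to 0.1. Deviations from a mean of 3 libraries depend on each other, so these values cannot decide whether same-numbered libraries share an animal. The labels give no pairs, so the main fit used none. With the replicate block, 44 rows were lower, 0 higher and the median was -4.80, and 4869 and 5123 of all genes were lower and higher. Rows with few ATRA counts, such as TTK, FOXM1, AURKB and ASPM, have changes whose size rests on single reads, and 3 libraries per group limit the precision of every standard error.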
